A study of Mus musculus with 2 samples.

Results

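The genes described here encode the nuclear subunits and assembly factors of the mitochondrial respiratory chain and of ATP synthase. They were chosen by symbol, from the families Nduf (complex I), Sdh and Sdhaf (complex II), Uqcr and Cyc1 (complex III), Cycs (cytochrome c), Cox (complex IV) and Atp5 (ATP synthase), with no use of measured values. The rule found 103 of the 17260 genes of the deposited table. They were measured in MEFs, fibroblasts taken into culture from C57BL/6 mouse embryos at embryonic day 13.5 and kept in DMEM with 10% serum. There was 1 library of wild-type (WT) cells and 1 of cells labelled Ahi1-/-, that is, without a working copy of the ciliary gene Ahi1. The sources used do not state how Ahi1 was disrupted, the passage, or the number of embryos per culture. Pairs of values below give WT first and the library labelled Ahi1-/- second. The table heads its columns CON and EXP, which were read as control (WT) and experimental (Ahi1-/-), so each direction rests on that reading.

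The respiratory chain is a row of protein complexes in the inner mitochondrial membrane. Complexes I and II feed electrons from NADH and succinate into ubiquinone, complex III passes them to cytochrome c, and complex IV, cytochrome c oxidase, hands them to oxygen. Complexes I, III and IV pump protons, and ATP synthase makes ATP as the protons flow back through its membrane part, Fo, which turns the catalytic part, F1. A few core subunits come from mitochondrial DNA and were not analysed here. The nuclear genes encode all other subunits and the assembly factors that insert cofactors and join modules.

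Each genotype had 1 library, so the differences have no replicate check and no test. The intervals given are exact 95% Clopper-Pearson intervals for counting error only. The libraries held 19067504 and 20820756 estimated counts. Ahi1 itself had 410 and 370 counts (log2 ratio -0.16, interval -0.37 to 0.05), so it did not check the label. A gene was measured when at least 1 library had 50 counts, and 99 of the 103 members were. Transcripts of 8 red blood cell markers, all more than 2-fold lower in the library labelled Ahi1-/-, summed to 1825 and 23.7 TPM (a level per transcript length that adds to the same total in each library). Of 8 fibroblast markers, 5 were at least 2-fold higher and 1, S100a4, was at least 2-fold lower, against 16% and 10.3% of all measured genes. The fibroblast markers' log2 ratios ran from -1.08 to 6.31, at a median of 1.67. Of 4 neural markers, 2 were at least 2-fold higher and 1 at least 2-fold lower. Of 3 measured macrophage markers, 1 was at least 2-fold higher and 0 were at least 2-fold lower. Of 4 endothelial markers, 0 were measured. The part of these differences in culture content in the results below was not tested. In bulk RNA, fewer cells of a type and less RNA per cell cannot be told apart.

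Most respiratory chain and ATP synthase genes lay close to equality. Of the 99 measured members, 82 (82.8%) lay within 1.5-fold, where 54.8% of all 12075 measured genes did. In all, 5 members (5.05%, against 26.4%) were at least 2-fold apart. At least 2-fold lower in the library labelled Ahi1-/- were 4 members (4.04%, against 10.3% of all measured genes), Cox15, Ndufb8, Atp5g2 and Atp5md. At least 2-fold higher was 1 member, Cox4i2 (1.01%, against 16%). At 1.5-fold, 12 members were lower (12.1%, against 21.6%) and 5 higher (5.05%, against 23.6%). The SD of the log2 ratios was 0.47 over the members and 1.58 over all measured genes. Members had a higher median WT level than all measured genes, 149 TPM against 23.7 TPM. The shares and SDs were not matched for level, and the part of level in them was not tested. The median log2 ratio was -0.11 for the members and -0.04 for all measured genes, and 62 of the 99 members (62.6%) lay below 0, against 52.6% of all. Counting intervals lay wholly below 0 for 43 members (43.4%, against 42.9% of all measured genes) and wholly above 0 for 19 (19.2%, against 38.8%). The members' median stayed below 0 under each scaling that was run, between -0.05 and -0.22.

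**Figure D1:**
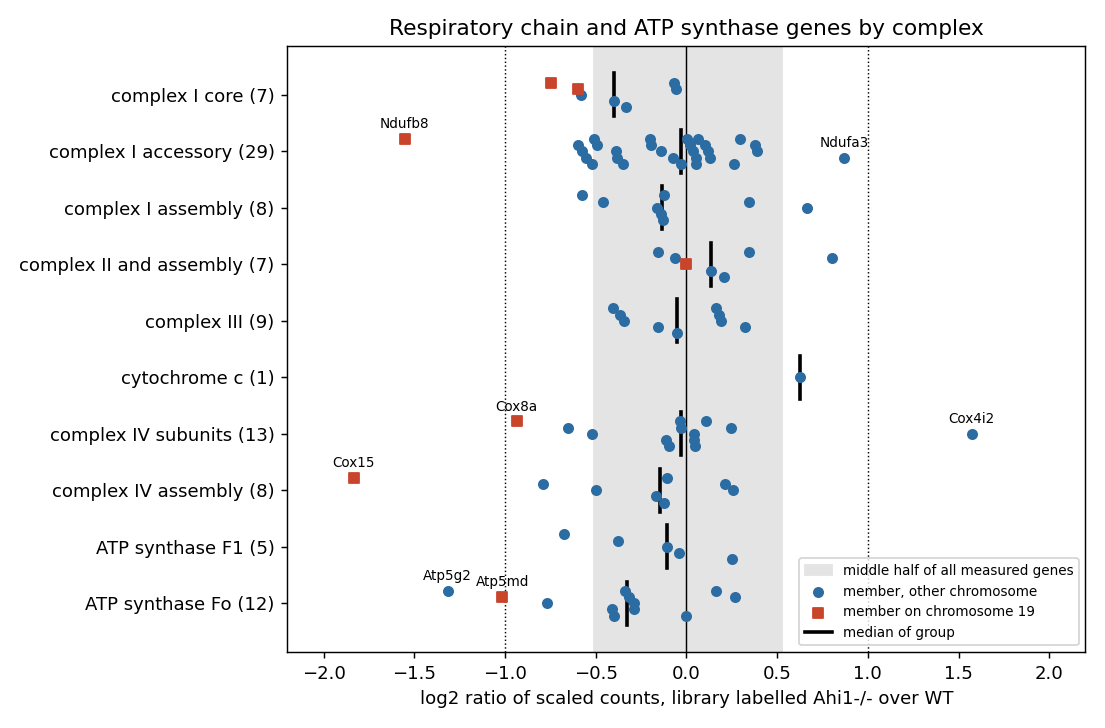
Log2 ratio of scaled counts (horizontal axis, library labelled Ahi1-/- over WT) for each of the 99 measured members, in rows by complex with the number measured. Squares are members on chromosome 19, bars are group medians, the grey band is the interquartile range of all measured genes and dotted lines mark 2-fold; Cox15, Ndufb8, Atp5g2, Atp5md and Cox4i2 lie outside them.

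Added over all 103 members, transcript levels came to 22707 and 19311 TPM, or 2.27% and 1.93% of the table. The net difference was -3395 TPM, in which increases of some members offset part of the decreases of others. The 5 largest decreases summed to -2413 TPM, which is 71.1% of the net difference and a smaller share of all decreases. They were Atp5g2 (-674 TPM), Cox8a (-604 TPM), Atp5md (-489 TPM), Ndufb8 (-365 TPM) and Cox4i1 (-281 TPM). Across the 99 measured members, log2 TPM values of the libraries had a Pearson correlation of 0.96, as a description over genes that share the same libraries.

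**Figure D2:**
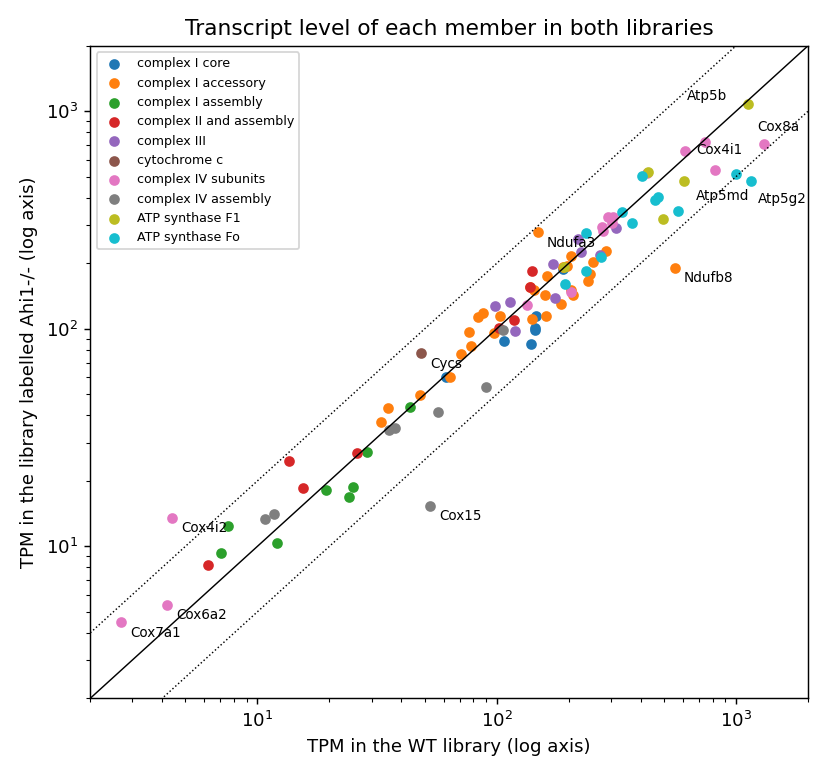
TPM of each member in the WT library (horizontal) and in the library labelled Ahi1-/- (vertical), both on log axes, coloured by complex, with the line of equality and dotted lines at 2-fold. Members run from Cox7a1 (2.69 TPM) to Cox8a (1314 TPM) in WT and from Cox7a1 (4.48 TPM) to Atp5b (1083 TPM) in the other library; Cox6b2, at 0 in WT, cannot be drawn on a log axis.

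Promoter sequences are shown here for the genes whose isoforms are compared below. RefSeq promoters of assembly GRCm38.p6, from 250 bases before to 50 after the transcription start, were found for 85 of the 103 members (91 promoters). Cox4i1 and Cox4i2 had no entry. The 150 bases before the start are printed 5′ to 3′ on the gene's strand, with capitals for matches to the NRF1 motif (nuclear respiratory factor 1, GCGCATGCG) or the ETS motif (CCGGAAG, the site type of GABP/NRF2), on either strand. The 3 genes of the ATP synthase c subunit encode the same mature protein, and their upstream sequences differ as follows.
Atp5g1 (chr11:96075632-96075781, minus strand): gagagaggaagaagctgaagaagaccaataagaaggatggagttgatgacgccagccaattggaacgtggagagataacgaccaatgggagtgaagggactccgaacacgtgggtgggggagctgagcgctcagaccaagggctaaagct
Atp5g2 (chr15:102671048-102671197, minus strand): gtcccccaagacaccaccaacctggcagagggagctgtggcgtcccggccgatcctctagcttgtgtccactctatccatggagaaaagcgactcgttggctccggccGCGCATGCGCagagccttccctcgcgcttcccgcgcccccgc
Atp5g3 (chr2:73911327-73911476, minus strand): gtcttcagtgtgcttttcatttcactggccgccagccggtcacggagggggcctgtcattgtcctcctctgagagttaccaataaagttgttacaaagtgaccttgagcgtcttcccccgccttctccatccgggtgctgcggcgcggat
Of these, Atp5g2 holds the NRF1 motif, starting 42 bases before the transcription start, and Atp5g1 holds 4 CCAAT matches within the printed stretch. The matches that start at -95 and -92 overlap on opposite strands. The COX6B genes encode the broadly expressed and the testis form of 1 complex IV subunit.
Cox6b1 (chr7:30626115-30626264, minus strand): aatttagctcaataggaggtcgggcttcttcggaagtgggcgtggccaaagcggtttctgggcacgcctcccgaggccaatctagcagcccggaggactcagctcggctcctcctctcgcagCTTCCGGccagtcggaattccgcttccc
Cox6b2 (chr7:4753095-4753244, minus strand): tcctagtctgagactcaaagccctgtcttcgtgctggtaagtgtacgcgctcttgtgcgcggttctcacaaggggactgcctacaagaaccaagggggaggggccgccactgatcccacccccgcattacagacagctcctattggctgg
Cox6b1 holds the ETS motif starting 28 bases before its start, and Cox6b2 holds neither capitalised motif in this window. Cycs, the cytochrome c gene, is shown because its ratio was higher while that of Atp5g2 was lower and both hold the NRF1 motif.
Cycs (chr6:50566570-50566719, minus strand): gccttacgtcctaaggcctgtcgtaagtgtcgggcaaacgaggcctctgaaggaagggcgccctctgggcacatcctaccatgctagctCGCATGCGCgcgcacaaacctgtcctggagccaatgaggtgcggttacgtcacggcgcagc
Here the motif starts 61 bases before the transcription start.

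Over whole promoters, the NRF1 motif was in 11 of the members' 91 (12.1%), in 3.57% of 12374 promoters of measured genes and in 1.76% of all 32544 promoters. The ETS motif was in 29.7%, 17.4% and 8.91%, in the same order. A YY1 core (AAGATGGCG) was in 9.89%, 2.96% and 1.41%. For 4 other motifs the shares were 49.5%, 63.2% and 35.9% for the SP1 box GGGCGG, and 42.9%, 37.9% and 37.4% for CCAAT. They were 9.89%, 7.02% and 13.6% for the TATA box TATAAA, and 7.69%, 9.89% and 7.17% for the E-box CACGTG. Both strands were searched, and 1 pair of matches to different motifs overlapped, ETS with SP1 at Ndufs3. The 11 genes with the NRF1 motif had log2 ratios in both directions, 5 below 0 and 6 above. They ran from -1.32 for Atp5g2, -0.32 for Atp5k, -0.16 for Uqcr11, -0.14 for Ndufaf5 and -0.10 for Cox6a1 to 0.02 for Ndufa8, 0.13 for Ndufa11, 0.16 for Uqcrc1, 0.27 for Atp5l, 0.62 for Cycs and 0.67 for Ndufaf4. A match describes letters and is not a binding site.

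Complex I, NADH dehydrogenase, takes electrons from NADH through a flavin and a chain of iron-sulfur clusters. The 7 nuclear core subunits, which hold these cofactors, all had log2 ratios below 0, at a median of -0.40, and for 5 of them the counting interval was wholly below 0, as it was for 42.9% of all measured genes. Ndufv1, which binds NADH and the flavin, had 2024 and 1218 counts, or 139 and 85.4 TPM (1.68-fold lower, log2 -0.75, interval -0.85 to -0.64). Ndufs8, an iron-sulfur subunit, had 1054 and 703 counts (log2 -0.60, interval -0.74 to -0.46). Ndufs7, which carries the last cluster before ubiquinone, had 979 and 661 counts (log2 -0.58). At the other end of this group, Ndufs1, the largest iron-sulfur subunit, had 1538 and 1481 counts (interval -0.17 to 0.04). Counting error therefore covers the difference for Ndufs1 and not for Ndufv1 and Ndufs8. Ndufv1 and Ndufs8 lie on chromosome 19, and without chromosomes 8, 17 and 19 the core median was -0.23.

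The 29 accessory subunits of complex I, which surround and steady the core, were split, with 15 below 0 and 14 above and a median of -0.03 that changed sign under several alternatives, among them upper-quartile scaling (0.02). Ndufb8, a membrane arm subunit, had 3466 and 1193 counts, or 556 and 191 TPM. It was 2.93-fold lower (log2 -1.55, interval -1.65 to -1.46) and stood apart from every other accessory subunit, of which Ndufa6 was the next lowest (1002 and 669 counts, log2 -0.60). In WT it had the highest TPM of all complex I genes, and in the library labelled Ahi1-/- its level lay below that of several, among them Ndufa3, Ndufa7 and Ndufab1. Ndufa3, a small membrane arm subunit, went furthest the other way, with 425 and 784 counts, or 149 and 278 TPM (1.83-fold higher, log2 0.87, interval 0.70 to 1.04). Ndufa12, which sits where the peripheral arm meets the membrane arm, had 768 and 1016 counts (log2 0.39, interval 0.25 to 0.53). For 12 of the 29 the counting interval held 0.

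The 8 assembly factors of complex I had low levels, 7.07 to 43.5 TPM in WT and 9.28 to 43.6 TPM in the library labelled Ahi1-/-, and wide intervals. Ndufaf4, which helps to build the ubiquinone module, had 253 and 405 counts (1.59-fold higher, log2 0.67, interval 0.44 to 0.90). Its partner Ndufaf3 had 92 and 118 counts (log2 0.35, interval -0.06 to 0.76), which counting error covers. Ndufaf1, which helps to build the membrane arm, had 315 and 213 counts (1.49-fold lower, log2 -0.58, interval -0.84 to -0.32). Ndufaf7, a methyltransferase that modifies a complex I subunit, had 438 and 321 counts (log2 -0.46, interval -0.67 to -0.25). The intervals of the remaining 4 held 0.

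Complex II, succinate dehydrogenase, is also an enzyme of the citric acid cycle. Its 4 subunits and measured assembly factors had a median log2 ratio of 0.13, which stayed above 0 under each alternative run (0.02 to 0.19). Sdha, the flavin subunit, had 3112 and 2817 counts (log2 -0.16, interval -0.23 to -0.08). Sdhc, a membrane anchor, had 1491 and 1909 counts, or 141 and 185 TPM (1.27-fold higher, log2 0.34, interval 0.25 to 0.44). The iron-sulfur subunit Sdhb had 1324 and 1466 counts (log2 0.13), and Sdhd, the other anchor, 1185 and 1145 (log2 -0.06, interval -0.18 to 0.06). Thus the 4 subunits of 1 enzyme lay between -0.16 and 0.34, and the interval of Sdhd alone held 0. Sdhaf1, which helps to place the iron-sulfur clusters in Sdhb, had 117 and 206 counts (1.75-fold higher, log2 0.80, interval 0.47 to 1.14). Sdhaf2, which helps to attach the flavin to Sdha, had 743 and 750 counts and was the only 1 of 7 members on chromosome 19 that did not lie below 0.

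Complex III, the cytochrome bc1 complex, had 9 members between -0.40 and 0.32, none of them 1.5-fold apart, with a median of -0.05 that turned just above 0 (0.0016) with upper-quartile scaling. Its nuclear-encoded redox subunits lay below 0. Cyc1, cytochrome c1, had 2049 and 1563 counts (1.32-fold lower, log2 -0.40, interval -0.50 to -0.31), and the Rieske iron-sulfur protein Uqcrfs1 had 1417 and 1127 (log2 -0.34). The hinge protein Uqcrh, next to cytochrome c1, had 1264 and 990 counts (log2 -0.37). The core proteins Uqcrc1 (2580 and 2911 counts, log2 0.16) and Uqcrc2 (1956 and 2234, log2 0.18) lay above 0, as did Uqcrb (1026 and 1181, log2 0.19) and Uqcrq (1354 and 1706, log2 0.32). Cycs, the mobile electron carrier cytochrome c, had 1407 and 2188 counts, or 48.4 and 77.1 TPM (1.54-fold higher, log2 0.62, interval 0.53 to 0.72). Cytochrome c and cytochrome c1, which exchange electrons, thus differed in opposite directions.

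Complex IV had 16 subunit genes, of which 13 were measured, with a median of -0.03 that changed sign under several alternatives, among them upper-quartile scaling (0.02). The 2 subunits of highest level in WT, Cox8a and Cox4i1, lay furthest below 0. Cox8a had 6106 and 3222 counts, or 1314 and 710 TPM (1.91-fold lower, log2 -0.94), just inside 2-fold, and it was 2-fold lower with total-count scaling (-1.05). Cox4i1, the broadly expressed form of subunit 4, had 5257 and 3380 counts, or 816 and 535 TPM (1.57-fold lower, log2 -0.65, interval -0.71 to -0.59). Cox7b had 1817 and 1280 counts (log2 -0.52, interval -0.62 to -0.41). In contrast, Cox6a1 had 3621 and 3420 counts (log2 -0.10), and Cox7a2l, which helps to join complexes III and IV, had 2697 and 2651 (log2 -0.04, interval -0.12 to 0.04). Cox6b1 had 1684 and 2013 counts (log2 0.24, interval 0.15 to 0.34). Ndufa4, which was first assigned to complex I and is counted here with complex IV, had 1284 and 1333 counts (interval -0.07 to 0.15).

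Several complex IV subunits have a second gene used in particular tissues or in low oxygen, and these minor forms were scarce in both libraries. Cox4i2, the form of subunit 4 known from lung and from low oxygen, had 28 and 84 counts, or 4.41 and 13.6 TPM (2.97-fold higher, log2 1.57, interval 0.94 to 2.24). It made up 0.53% (exact 95% interval 0.35 to 0.76) and 2.42% (1.94 to 2.99) of the COX4 counts. Cox6b2 had 0 and 43 counts, or 0 and 10.2 TPM. With WT set to a floor of 3 counts the log2 ratio was 3.83 (14.2-fold higher). That value is not a lower bound, since the lower limit of the counting interval was log2 3.47. Cox6b2 had too few counts to be called. The 0 of 1684 COX6B counts in WT allows a share of up to 0.18% by the floor of 3 counts, and up to 0.22% by the exact 95% interval, and Cox6b2 held 2.09% (1.52 to 2.81) in the other library. The heart and skeletal muscle forms did not differ beyond counting error. Cox6a2 had 24 and 30 counts (interval -0.51 to 1.15) and Cox7a1 had 8 and 13 (interval -0.69 to 2.16). Of 8 muscle markers in the table, 2 were measured and they differed in opposite directions. Acta1 had 23 and 620 counts (log2 4.74, interval 4.14 to 5.41) and Tnnt2 had 127 and 22 (log2 -2.54, interval -3.27 to -1.88). The muscle markers under 50 counts all had more counts in the library labelled Ahi1-/-. Ckm, Myh7 and Myh3 had 0 counts in WT and 1, 1 and 3 in the other library. Actc1 had 1 and 6 counts, Tnnt1 had 6 and 12, and Tnni1 had 1 and 16. Among these low-count markers, only Tnni1 had a counting interval wholly above 0. Of the 8 muscle markers, Tnnt2 alone was lower.

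Ndufa4l2, a low-oxygen relative of Ndufa4 that the symbol rule leaves out, had a ratio further from 0 than any of the 99 measured members. It is not ranked against Cox6b2, whose ratio rests on a floor set for its WT count of 0. Ndufa4l2 had 27 and 1078 counts, or 3.16 and 129 TPM (log2 5.31, interval 4.76 to 5.91). It held 2.06% (1.36 to 2.98) and 44.7% (42.7 to 46.7) of the counts of both genes, and by TPM, which allows for length, 1.02% and 28.4%.

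The c subunit of ATP synthase forms the rotating ring of Fo and is encoded by Atp5g1, Atp5g2 and Atp5g3. Atp5g2 had 6480 and 2627 counts, or 1152 and 478 TPM (2.49-fold lower, log2 -1.32, interval -1.38 to -1.25). Atp5g3 had 2974 and 2460 counts, or 473 and 402 TPM (log2 -0.29, interval -0.36 to -0.21). Atp5g1 had 1659 and 1875 counts, or 237 and 274 TPM (log2 0.16, interval 0.07 to 0.26). Only Atp5g2 of these was 2-fold apart. Summed TPM of the 3 genes was 1863 and 1155, and the share of Atp5g2 in it was 61.9% and 41.4%, with 12.7% and 23.8% for Atp5g1. By counts the share of Atp5g2 was 58.3% (57.4 to 59.2) and 37.7% (36.6 to 38.9). Atp5g2 lies on chromosome 15, and with that chromosome's median subtracted its log2 ratio was -1.14.

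**Figure D3:**
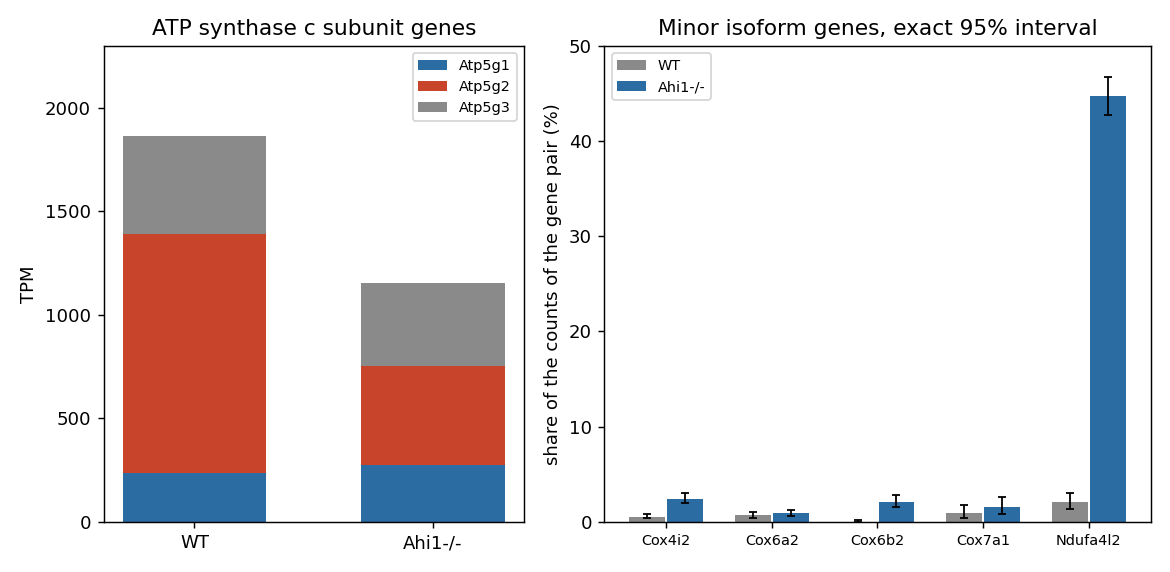
Left, stacked TPM of the 3 ATP synthase c subunit genes in each library, with totals of 1863 and 1155 TPM. Right, share of counts (%) held by each minor isoform gene within its pair, with exact 95% intervals for counting error; Ndufa4l2 goes from 2.06% to 44.7%, and the other 4 stay under 3%.

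Most ATP synthase genes were lower. Of all 17, c subunit genes included, 14 lay below 0, against 52.6% of all measured genes. At least 2-fold lower were 2 of the 17, Atp5g2 and Atp5md, a share near the 10.3% of all measured genes. The summed level of the 17 was 8560 and 6724 TPM. In F1, the catalytic beta subunit gene Atp5b had 19323 and 18119 counts, the most of any member (log2 -0.11, interval -0.14 to -0.08). The alpha subunit gene Atp5a1 had 13496 and 10478 counts (log2 -0.38), and Atp5c1, for the central stalk subunit gamma, 5199 and 3284 (1.60-fold lower, log2 -0.68, interval -0.74 to -0.61). The delta subunit gene Atp5d, also of the central stalk, went the other way with 3548 and 4268 counts (log2 0.25, interval 0.19 to 0.32). In Fo, 10 of 12 members lay below 0 and the median was -0.33. Atp5md, which encodes a small membrane subunit (DAPIT), had 2947 and 1472 counts, or 1002 and 513 TPM (2.02-fold lower, log2 -1.01, interval -1.11 to -0.92). The interval spans the 2-fold line, and the ratio was -0.96 with upper-quartile scaling. Atp5j2, for subunit f, had 2301 and 1363 counts (1.70-fold lower, log2 -0.77). Peripheral stalk genes differed less, with log2 -0.41 for Atp5pb, -0.34 for Atp5j and -0.29 for Atp5o, and the interval of Atp5h held 0. Atp5l, for subunit g, had 1758 and 2134 counts (log2 0.27, interval 0.17 to 0.36).

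The assembly factors of complex IV held the lowest ratio of all members. Cox15 and Cox10 act one after the other to make heme A, the heme found in complex IV. Cox15, the second of these enzymes, had 2348 and 665 counts, or 52.8 and 15.3 TPM (3.56-fold lower, log2 -1.83, interval -1.96 to -1.71). Cox10, the first, had 316 and 369 counts, or 11.8 and 14.1 TPM (log2 0.21, interval -0.01 to 0.43), which counting error covers. Cox14, which couples synthesis of the mitochondrially encoded subunit 1 to assembly, had 570 and 333 counts (1.73-fold lower, log2 -0.79, interval -0.99 to -0.59). Of the copper delivery factors, Cox19 had 380 and 271 counts (log2 -0.50, interval -0.73 to -0.27), while the intervals of Cox17 (397 and 356) and Cox11 (223 and 269) held 0.

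Of the members that were 2-fold lower, 3 of 4 lie on chromosome 19, where genes in general were lower. Of 430 measured genes on chromosome 19, the median log2 ratio was -0.66, 77.7% had a negative ratio and 36.3% were at least 2-fold lower. Of the 7 members there, 3 (Cox15, Ndufb8 and Atp5md) were 2-fold lower and 6 lay below 0, with a median of -0.94. With the chromosome median subtracted, Cox15 was at -1.17, Ndufb8 at -0.89, Atp5md at -0.35, Cox8a at -0.27, Ndufv1 at -0.08 and Ndufs8 at 0.06. Thus Ndufv1 and Ndufs8 stood near their chromosome's median, Cox8a and Atp5md somewhat below it, and Cox15 and Ndufb8 further below. With the median subtracted, Atp5md and Ndufb8 were no longer 2-fold lower. These 7 genes came to 46.9% of the net TPM difference, in which increases of other members offset part of the decreases. Chromosome 8 (3 members, all below 0, median -0.52) and chromosome 17 (7 members, 6 below 0, median -0.33) also had medians below 0 over all genes, -0.40 and -0.32. Among the 82 measured members on other chromosomes, 47 lay below 0 and the median was -0.06. On chromosome 7, 6 of 6 measured members lay above 0, where the median over all genes was 0.21. The part of chromosome position in the members' ratios was not tested.

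**Figure D4:**
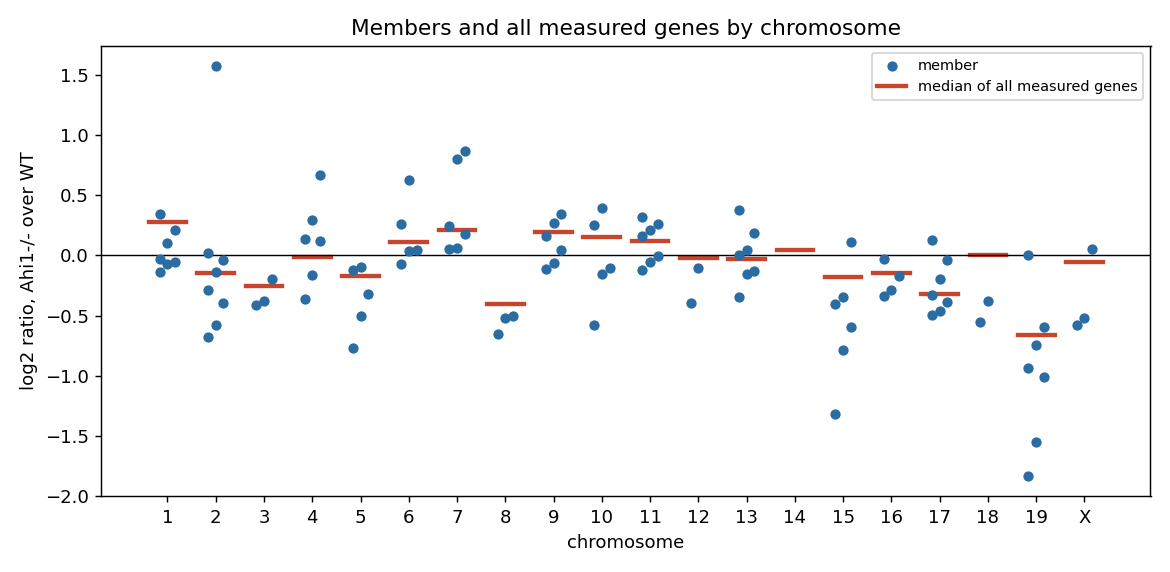
Log2 ratio (vertical, library labelled Ahi1-/- over WT) of each measured member as points by chromosome, with the median of all measured genes on that chromosome as a bar. Chromosome 19 has the lowest bar (-0.66), and its members run from Cox15 at -1.83 to Sdhaf2 at 0.00.

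Related genes outside the symbol rule were read from lists of the same pathway. Of 37 measured other assembly factors and subunits, 1 was at least 2-fold higher (Ndufa4l2) and 1 at least 2-fold lower, the complex III factor Uqcc3 on chromosome 19 (307 and 151 counts, log2 -1.04, interval -1.33 to -0.75). Their median log2 ratio was -0.11. Over all measured genes, 16% were at least 2-fold higher and 10.3% at least 2-fold lower. Of 18 measured regulators of mitochondrial biogenesis and mitochondrial DNA, 14 lay below 0 (52.6% of all measured genes did), with a median of -0.50, against -0.04 over all measured genes. At least 2-fold lower were 2 of the 18, a share near the 10.3% of all measured genes. These were Twnk, the mitochondrial DNA helicase (1435 and 359 counts, log2 -2.01, interval -2.18 to -1.84), and Pprc1, a coactivator related to PGC-1alpha (5537 and 2607 counts, log2 -1.10, interval -1.17 to -1.03), both on chromosome 19. Of 17 pyruvate dehydrogenase and citric acid cycle genes, 0 were at least 2-fold apart, against 26.4% of all measured genes. Of these 17, 8 lay below 0 and 9 above, and the median was 0.01.

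The authors' deposited table of FPKM values lists 3872 of the 17260 genes (22.4%), and where both values were above 0 they were at least 2-fold apart. It lists 7 of the 103 members. These are Cox15 (25.9 and 6.73 FPKM), Ndufb8 (273 and 83.7), Atp5g2 (566 and 210.1), Atp5md (492 and 225), Cox8a (646 and 312), Cox4i2 (2.17 and 5.95) and Cox6b2 (0 and 4.47). The FPKM ratios lay 0.16 below the TPM ratios on the log2 scale at the median gene of this table, so Cox8a was past 2-fold there (2.07-fold lower) and not in scaled counts.

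Read counts of some members are estimates that are not whole numbers, and the origin of the fractions was not tested. In 24 of the 103 members at least 1 deposited count was not whole, among them Cox15, Atp5a1, Atp5g1 and Cycs, and these are less certain than the other 79. For members with 50 counts in both libraries, the TPM ratio exceeded the count ratio by a median of 0.05 on the log2 scale. The median was also 0.05 over all 10724 genes with 50 counts in both, so this offset is not particular to the members. Ndufv3, which has alternative transcripts, departed most upward (0.17) and Ndufaf6 most downward (-0.07).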

How the data were processed

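For 17260 mRNA genes, expected counts and TPM stand in 1 deposited table and FPKM values in another, per the file headers. Per the submitters' processing notes, the tools were RSEM 1.2.12, Bowtie2 2.2.5 and HISAT2 2.0.4, and the build mm8, with no roles stated. Annotation, strand use and filters are not stated. All 6 value columns were used.

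Counts were rounded and scaled with TMM (edgeR 4.0.16, R 4.3.3), without a test, since each genotype had 1 library. Intervals are exact Clopper-Pearson 95% intervals on the share of both counts, for counting error only. A 0 was set to a floor of 3 counts. Calls needed 2-fold and 50 counts. Python 3.11.15, numpy 2.4.6, pandas 2.3.3 and scipy 1.17.1 were used. The calculation was tested on simulated data. Chromosomes and promoters came from RefSeq GRCm38.p6. The motifs and the promoters shown were chosen after values were seen, and a form of the NRF1 motif longer by 1 letter was searched before the one given.

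Named genes are Ahi1, members past 2-fold, the 2 highest and lowest ratios and 2 highest TPM per group, isoform pairs and past-2-fold list genes. Outside this rule, named after their values were seen, are Ndufs7, Ndufab1, Ndufa8, Ndufa11, Ndufv3, Ndufaf5, Ndufaf6, Sdhaf2, Uqcrc1, Uqcrc2, Uqcrfs1, Cox19, Atp5h, Atp5j, Atp5j2, Atp5k, Atp5o, Atp5pb, S100a4 and the muscle genes. A gene that the rule also names is not reported here. Members and lists were chosen with earlier results of these data known. Alternatives covered scaling, unit, minimum count, fold, rounding and chromosomes.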

Additional observations from a re-analysis of the deposited data

How the results depend on the processing

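No paired analysis was possible because each genotype had 1 library. The members' median log2 ratio of -0.11 was -0.22 with total counts and -0.21 with TPM moved to the FPKM scale, and over all measured genes these settings moved the median from -0.04 to -0.16 and -0.15. The cytochrome c ratio of 0.62 was 0.51 with total counts, with the chromosome median subtracted and on the FPKM scale. The number of members 2-fold higher was 1, and was 2 with a minimum of 10 counts (Cox6b2 added), 0 with a minimum of 200 counts and 5 at 1.5-fold. The number 2-fold lower was 4, and was 12 at 1.5-fold, 2 with chromosome medians subtracted, and 1 both without chromosome 19 and without chromosomes 8, 17 and 19, which leave Atp5g2. Counts of 3 (TPM, upper-quartile scaling and members with whole counts) and 5 (total counts and FPKM scale) stayed within 1.5 times. The median of complex I accessory subunits changed sign with upper-quartile scaling (0.02), TPM (0.02), whole counts (0.02) and without chromosomes 8, 17 and 19 (0.03). That of complex IV subunits did so with upper-quartile scaling (0.02), TPM (0.02), a minimum of 10 counts (0.04), without chromosomes 8, 17 and 19 (0.04) and without chromosome 19 (0.0048), and that of complex III with upper-quartile scaling (0.0016). The medians of the other groups kept their sign under each alternative. The settings on chromosome 19 alone, whole counts and the FPKM scale were chosen after seeing the data. Depth limits Cox6a2, Cox6b2, Cox7a1 and Sdhaf3, each under 50 counts in both libraries.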
